A study of Homo sapiens with 10 samples.

Results

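The regions described here are the N6-methyladenosine (m6A) peaks of the most densely marked transcripts of HCT116, a human colorectal cancer cell line. A gene was taken as a host when either of 2 deposited m6A peak lists held at least 8 peaks for it, and 417 of the 9549 genes with any listed peak met this (4.37%). Of their peaks, those that start at position 200 or later and before position 4000 of the transcript and are narrower than 250 nucleotides were kept. That left 2000 of the 24494 peaks of replicate 1 and 1976 of the 24855 of replicate 2. The threshold on peak number fixes that the hosts have many peaks, so that count is no finding. Just inside it lay 147 genes whose higher count was 8, and just outside it 301 genes whose higher count was 7.

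Per the labels, all 10 samples of the series are HCT116 cells given 100 ug/ml of cycloheximide, an inhibitor of translation elongation, for 3 min. Both m6A-seq replicates, the RNA recovered with an antibody to YTHDF1 (RIP) and its whole lysate input are labelled control. Ribosome footprints and mRNA were each sequenced in 1 control library, whose hairpin targets GFP per the file headers, and 2 libraries with a YTHDF1 hairpin. The titles of those 2 read shY1-1 and shY1-2 while their genotype reads shY1, so whether they are different hairpins or repeats of 1 is not settled. They are called knockdown 1 and knockdown 2 here. The labels do not say that samples came from separate cultures, so a p-value measures only the spread between these libraries, which may be technical.

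m6A is placed on mRNA by a methyltransferase complex built around METTL3 and METTL14, which acts on a short motif around an adenosine. It is read by proteins with a YTH domain, among them the cytoplasmic YTHDF1, best known for promoting translation of the mRNAs it binds. The mark is known to be frequent in long internal exons and near stop codons.

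Each listed peak carries the position of an adenosine and the 5 letters around it, and these are the sequences the lists rest on. Along the transcript of KLF13, a zinc finger transcription factor whose gene lies at chr15:31326835-31435665 in the RefSeq table of GRCh38.p14, 4 such sites were listed at the same position in both replicates. They are shown because this host also held a peak of the highest POI with solid input. POI is the deposited ratio of immunoprecipitate over input signal in a window, listed from 3 upwards. Both lists rest on 1 shared input, as described below, so their POI values are not independent. The capital marks the adenosine the lists assign to the peak, which is not a measurement of single bases, and positions count from the start of a transcript the lists do not name.
KLF13 position 963: ggAct
KLF13 position 2302: ggAcc
KLF13 position 2656: aaAct
KLF13 position 2907: ggAcc
The POI of these 4 sites was 3.03, 30.5, 43.1 and 9.77 in replicate 1, and 3.43, 32.3, 33.8 and 6.93 in replicate 2. The order of the 4 sites was the same in both replicates, and the peaks at 2302 and 2656 were the high ones in each. They differ in the signal behind them. The window at 2302 had an input signal of 174 and 167, and the window at 2656 only 10.5 and 7.87, so the ratio at 2656 rests on little input. Because the transcripts are not named, whether a site lies in a coding region or a UTR was not determined.

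A host with closely spaced kept windows was DNAJC6, which encodes auxilin, a co-chaperone that uncoats clathrin vesicles. It held 10 of the kept peaks in replicate 1 and 6 in replicate 2. The 4 sites below were at the same position in both. They are shown because the kept windows of this host had 1 of the narrowest median spacings among 69 hosts with enough distances. That spacing is of all its kept windows, and these 4 sites alone are not close together.
DNAJC6 position 1560: gaAca
DNAJC6 position 1746: gaAct
DNAJC6 position 2448: aaAcc
DNAJC6 position 2942: agAcc
Their POI was 5.50, 16.4, 15.9 and 4.42 in replicate 1 and 6.84, 16.7, 16.1 and 4.35 in replicate 2. The middle sites were high and the outer sites low in both replicates, which share the input. The part of the input signal in this order was not tested. A peak at 2250 to 2350 with a POI of 36.4 in replicate 1 had no counterpart in replicate 2.

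LRP6, the Wnt co-receptor, is shown as a Wnt pathway host, with 6 kept peaks in replicate 1 and 3 in replicate 2. The sites below were listed at the same position in both.
LRP6 position 306: gaAca
LRP6 position 3248: agAcc
At 306 the POI was 10.9 in replicate 1 and 18.6 in replicate 2, and at 3248 it was 3.62 and 4.13. Between them, replicate 1 had 4 more kept windows, among them 2350 to 2475 with a POI of 33.0 at an agAca site. That window met only a wider peak of replicate 2 that the width limit removed.

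Over all kept peaks of hosts, 1032 sites were listed at the same position in both replicates, 52.1% of the 1982 different sites of replicate 1 and 52.6% of the 1964 of replicate 2. All 1032 had the same 5 letters in both lists. The lists use 12 motifs, with a or g at the first and second letter, A at the third, c at the fourth and a, c or t at the fifth. No motif dominated in the hosts. The most frequent was ggAca, at 10.3% of the peaks in each replicate, level with gaAca in replicate 2. The least frequent was aaAcc in replicate 1 (6.05%) and agAct in replicate 2 (6.43%). The core GGAC stood in 27.7% and 27.4% of the hosts' peaks and in 31.0% and 29.4% of the peaks of other genes in the same window. Its median POI was 6.11 in replicate 1 and 5.62 in replicate 2, beside 5.85 and 5.70 over all the hosts' peaks. Hosts with at least 8 kept peaks, 43 in replicate 1 and 36 in replicate 2, held a median of 6 different motifs each, with a range of 4 to 8 and 5 to 9. That number depends on the peaks required per host. It was not computed for other genes, so whether it is particular to hosts is not known. The site lay inside its window in 79.8% and 80.9% of the peaks, at a median of 18 and 19 nucleotides from the summit.

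The hosts had 3554 peaks in replicate 1 and 3608 in replicate 2 before the limits on position and width. Of these, 1217 and 1252 started at position 4000 or beyond, 80 and 82 before position 200, and 257 and 298 were too wide. Over hosts that kept any, the peaks came to a median of 5 per host in each replicate, with at most 13 and 11, and 7 and 4 hosts kept none. The 15 hosts with most peaks over both lists had 28 to 56. MACF1, a spectraplakin that links actin to microtubules, had 28 in each replicate. HIPK2, a nuclear kinase, had 24 in each. KMT2A, a histone H3K4 methyltransferase, had 19 and 24. DST, another cytoskeletal linker, had 15 and 23. HERC2 and RNF213, giant ubiquitin ligases, had 18 and 17, and 19 and 15. Others among the 15 were AHNAK, ASH1L, MED13L, FAT1, MED13, EPPK1 and KMT2D. Few of these peaks lay in the window kept. MACF1 had 5 and 4 kept peaks, HERC2 2 in each, and KMT2A 4 and 9.

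**Figure D1:**
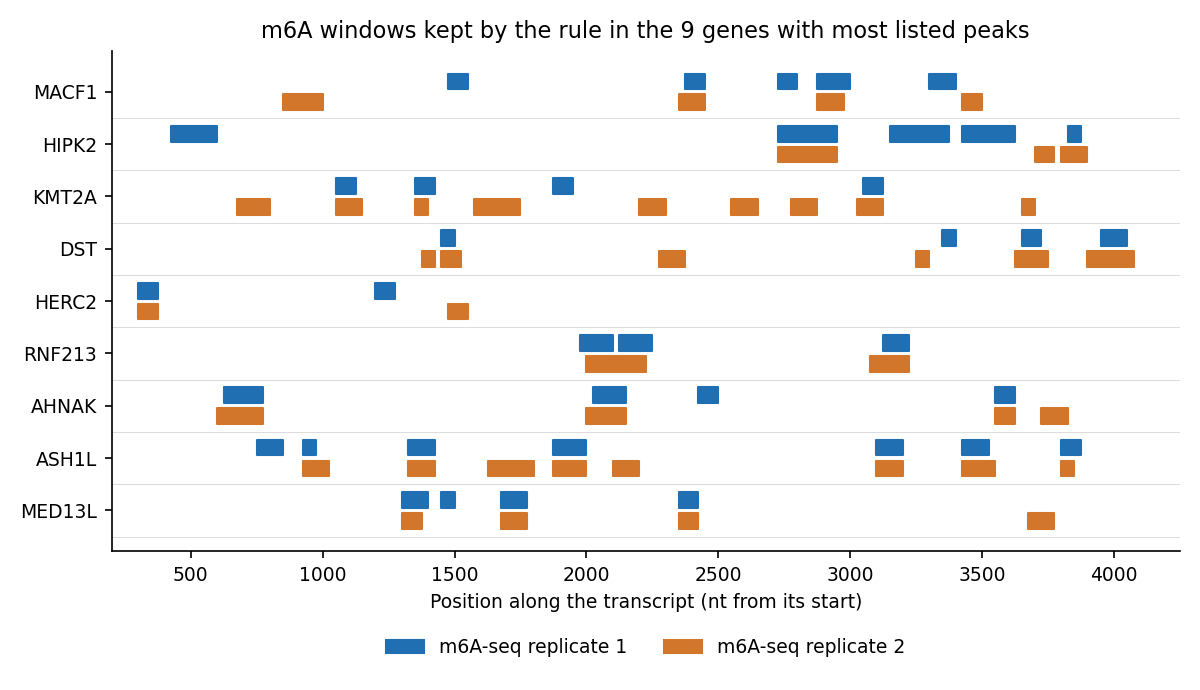
Kept m6A windows of the 9 genes with most listed peaks (ties by symbol), by position along the transcript in nucleotides (x axis) and gene (y axis). Blue bars are windows of replicate 1 and orange bars those of replicate 2. Windows of AHNAK largely coincided between replicates, while KMT2A had 4 in replicate 1 and 9 in replicate 2.

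The 2 lists often differed in how many peaks a host had. Only 168 hosts reached 8 peaks in both, 116 reached it in replicate 1 alone and 133 in replicate 2 alone. The difference in peak number between lists had a median of 2 and reached 12, and 49 hosts had equal numbers. The rule takes a gene that reaches 8 in either list, so these differences are partly set by it. They were not computed for other genes. In 7 hosts 1 of the lists held at most 2 peaks. ITGA2, an integrin collagen receptor subunit, had 10 in replicate 1 and 0 in replicate 2. NKTR had 1 and 9, KIF11, a mitotic kinesin, 2 and 9, SBF2 10 and 2, FAM84B 8 and 1, and FAM46A and SNRK 2 and 8 each. These 7 were picked after their values were seen.

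Peak by peak, 1490 of 2000 kept peaks of replicate 1 (74.5%) overlapped a peak of replicate 2 by at least 1 position. In the other direction 1428 of 1976 did (72.3%). Peaks of other genes in the same window did so in 72.6% and 70.2%. The overlap of the hosts' peaks was thus within 3 percentage points of that of other genes, and no test of this difference was made. In 319 hosts with at least 3 kept peaks in each list, 20 had every kept peak matched in both directions. CNOT1, the scaffold of the CCR4-NOT deadenylase, had all 5 kept peaks of each list matched, and all 5 listed sites, among them those at 541, 1775, 2617 and 2701, were the same in both. MAML1, a coactivator of Notch, had all 7 and 9 matched. In 5 hosts (CACNA1H, DIP2B, ENTPD4, FAM20B and SYNJ2) fewer than 50% were matched in each direction. These examples were picked after their values were seen.

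The replicates are not independent. In 446 windows, in 257 hosts, start and stop were identical in both lists, and in all 446 the input signal was identical too, as it was in all 5972 identical windows of the series. Both lists therefore rest on 1 shared input, and POI differs between them through the immunoprecipitate. In the 440 identical windows with a POI in both, log2 POI of replicate 2 minus replicate 1 had a median of 0.02 and an SD of 0.40, and 85.2% were within 1.5-fold. Their log2 POI correlated at r = 0.92 across windows, which share input, transcript and library and are not independent.

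**Figure D2:**
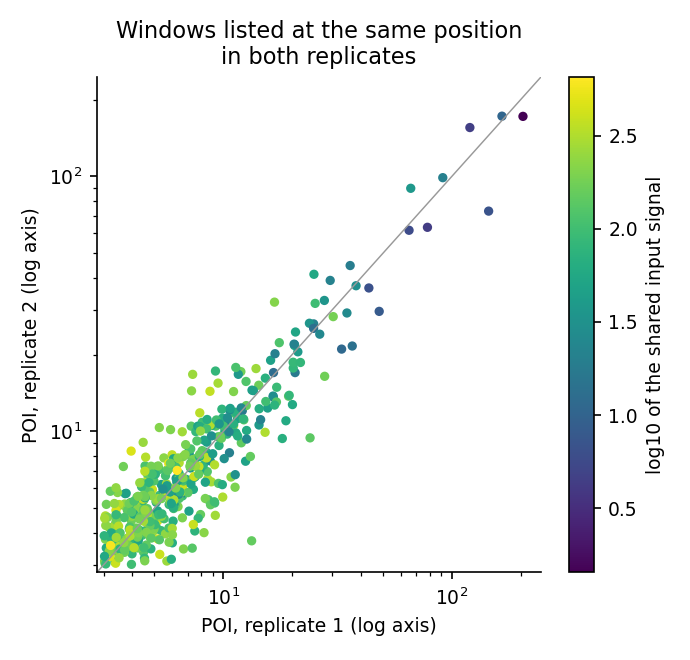
POI of the 440 windows of hosts with the same start and stop in both replicates, replicate 1 on the x axis and replicate 2 on the y axis, both log axes, coloured by log10 of the shared input signal. Points lie along the line of equality with an SD of 0.40 in log2, and the windows of highest POI have low input.

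The median POI of the hosts' peaks was 5.85 in replicate 1 (quartiles 4.13 and 9.42) and 5.70 in replicate 2 (4.04 and 9.17). Peaks of other genes in the same window had medians of 5.39 and 5.31. Among peaks with input at or above the median of their list, the medians were 4.77 and 4.74 in hosts and 4.63 and 4.66 in other genes. No test was made of these differences, since peaks of a gene share their source and both lists share the input. POI was at least 10 in 22.6% and 21.8% of the hosts' peaks with a ratio, and 28 and 29 peaks had no ratio because their input was 0. The peaks with POI of at least 10 had a median input of 0.387 and 0.385 per position, against 1.10 and 1.09 in the hosts' other peaks. Their immunoprecipitate signal per position was 6.46 in each replicate, against 5.37 and 5.12. Since POI is the ratio of these signals, choosing peaks by POI fixes this direction, and the values only describe the choice.

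Peaks found in both lists had a higher POI than peaks found in 1. Their median was 6.21 and 6.23, against 4.59 and 4.41 for the hosts' peaks found in 1 list. Both lists begin at a POI of 3 and share the input, so a peak near that limit more easily lacks a counterpart. The direction may thus be partly set by the lists. Peaks found in both were also wider, with a median of 125 against 100 nucleotides in each replicate. Along the transcript, the hosts' peaks centred before position 500 had the highest median of replicate 1, 7.57 (98 peaks), and 6.57 in replicate 2 (103 peaks), where the stretch from 3500 up to 4000 was level with it at 6.57. Peaks of other genes centred before position 500 had medians of 4.93 and 5.08. The input of the hosts' peaks there was lower as well, 0.703 and 0.705 per position against 0.957 and 0.956 over all their peaks. The part of that input in the difference was not tested.

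Strong and weak peaks stood side by side in the same transcripts. Of the variance of log2 POI over the hosts' peaks, 71.4% in replicate 1 and 74.7% in replicate 2 lay within hosts. In hosts with at least 4 ratios the highest was a median of 3.74 times the lowest in replicate 1 (302 hosts) and 3.70 times in replicate 2 (296 hosts). In 35 and 32 hosts it was at least 10 times. With few peaks per host, a large share of variance lies within hosts even where hosts do not differ. None of these values was computed for other genes, so whether they are particular to hosts is not known. MTOR, the growth-controlling kinase, gave an extreme at low input. Its peak at 1850 to 1925 had a POI of 485 in replicate 1 with an input signal of 0.5, while the identical windows at 2250 to 2350 had 3.42 and 4.69 in replicates 1 and 2, with an input of 112.

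With input at or above the median of its list, the highest POI in replicate 1 was that of KLF13 at 2250 to 2475. FOXJ3, a forkhead transcription factor, followed with 30.3 at 1475 to 1625, and the same window had 28.2 in replicate 2 at a gaAcc site at position 1595. FBXO41, an F-box protein gene, had 27.8 at 3100 to 3325 in replicate 1 and 16.5 in the identical window of replicate 2. WDR59, of the GATOR2 complex that signals to mTOR, had 24.0 at 2500 to 2675 in replicate 1 and 9.44 in replicate 2. GPD2, the mitochondrial glycerol-3-phosphate dehydrogenase, had 21.4 at 2400 to 2600 in replicate 1 and 36.6 at 2375 to 2600 in replicate 2. The listed site moved with it, from ggAcc at 2531 to gaAcc at 2501. HIF1AN, the asparaginyl hydroxylase that limits HIF activity, had 16.8 and 32.1 in an identical window at 1750 to 1900. QSER1, which encodes a chromatin protein, had 27.2 at 1050 to 1275 in replicate 2. KLF13 and FOXJ3 differed between replicates by less than the SD of 0.40 in log2, and FBXO41, WDR59, GPD2 and HIF1AN by more.

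Neighbouring peaks of a host lay a median of 400 nucleotides apart in replicate 1, centre to centre (quartiles 212.5 and 762.5, 1590 distances). In replicate 2 the median was 450 (237.5 and 787.5, 1563 distances). Distances ran from 75 to 3512 and to 3388, and the median empty gap between windows was 275 and 325. Genes with 4 to 7 peaks had median distances of 437.5 and 462.5 in the same stretch of transcript, and genes with 2 or 3 peaks 437.5 and 475. The hosts' medians were lower than those of genes with 4 to 7 peaks in both lists, by 37.5 and 12.5, while the hosts' own medians differed by 50 between the lists. A distance of at most 150 made up 10.8% and 8.64% of the hosts' distances and 10.7% and 8.93% of those of genes with 4 to 7 peaks. A distance above 1000 made up 15.4% and 16.0% in hosts, and 18.1% and 19.1% in genes with 4 to 7 peaks. In genes with at least 4 distances, the coefficient of variation of the distances had a median of 0.682 and 0.694 in hosts (242 and 228) and 0.683 and 0.690 in genes with 4 to 7 peaks (456 and 420). The rule sets how many peaks a host has, so its distances are partly fixed by the rule. No test was made of these differences.

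**Figure D3:**
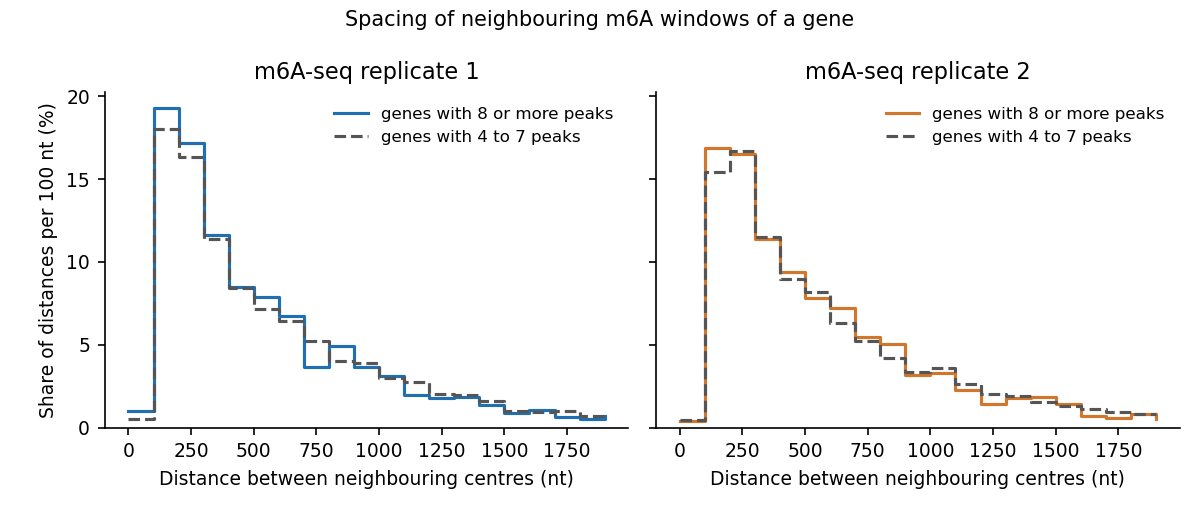
Distances between the centres of neighbouring kept windows of a gene (x axis, nucleotides, in steps of 100) as a share of all distances (y axis, %), for replicate 1 (left) and replicate 2 (right). Solid lines are the hosts and dashed lines genes with 4 to 7 listed peaks, the curves nearly coincide, and distances beyond the axis are not drawn.

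The peaks of hosts reached further along the transcript. The furthest listed peak ended at position 4000 or beyond in 346 of the 417 hosts (83.0%) and in 1033 of 9132 other genes (11.3%). The median of the furthest end was 5900 in hosts and 1850 in other genes. Since the rule counted peaks over the whole transcript, it favours long transcripts, and these values describe what it selected. Peak number over both lists and the furthest end correlated over the 417 hosts at r = 0.63 (Spearman's coefficient 0.49), as a description. Among only those 346 hosts and 1033 other genes, hosts held a median of 5 and 4 peaks within the kept window. The other genes held 2 in each replicate, and genes with none there were counted. The rule selected hosts by peak number, so the direction of this difference is largely set by it.

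Among hosts with at least 5 distances in each list, 69 genes, ranked by the median of their distances over both lists together, the narrowest spacing was that of MFI2, the iron-binding melanotransferrin. Its median distance was 175 in replicate 1 and 187.5 in replicate 2. HIP1, an endocytic adaptor that binds clathrin and actin, had 275 and 175, and DNAJC6 212.5 and 200. MFI2 listed 6 sites at the same position in both replicates, at 1253, 1619, 1688, 1911, 2120 and 2862. Its highest POI over those sites was 11.99 in replicate 1 and 8.45 in replicate 2. The widest by that rank were ZBED4 (312.5 and 775, the former below the median of all hosts), KDM2A, a histone demethylase of H3K36 (650 and 662.5), and TNKS, a poly-ADP-ribose polymerase that destabilises axin (412.5 and 750). The medians of ZBED4 and TNKS differed between replicates by more than 300 nucleotides, those of KDM2A, MFI2 and DNAJC6 by less than 50.

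The hosts were grouped by function with lists drawn up with earlier results of these data known, so their shares are descriptive. Of 134 chromatin regulators with a listed peak, 44 were hosts (32.8%), beside 16.1% of genes in any of the 9 lists (174 of 1083) and 4.37% of all genes with a peak. They included KMT2A, KMT2D and ASH1L (histone methyltransferases), EP300 and CREBBP (acetyltransferases), CHD7 and CHD8 (remodellers), KDM6B (an H3K27 demethylase) and TET3. Of 94 genes of the cytoskeleton, adhesion and large scaffolds, 27 were hosts (28.7%), with MACF1, DST, AHNAK, FAT1 (an atypical cadherin), TRIO and DYNC1H1 (the heavy chain of cytoplasmic dynein). Ubiquitin ligases and deubiquitinases gave 16 of 76 (21.1%), with HERC2 and RNF213. Transcription factors and coregulators gave 21 of 115 (18.3%), among them the Mediator kinase module subunits MED13 and MED13L. Genome maintenance gave 14 of 88 (15.9%), among them PRKDC, the DNA-dependent protein kinase. Receptors, kinases and adaptors gave 18 of 114 (15.8%), with EGFR, NOTCH1 and IRS1. RNA processing and translation gave 16 of 106 (15.1%), with SF3B1, CNOT1, the decay kinase SMG1 and POLR1A. The Wnt pathway gave 4 of 49 (8.16%): LRP6, TNKS, CHD8 and ZNRF3, which removes Wnt receptors. Zinc finger genes by symbol gave 17 of 313 (5.43%), below the share over all 9 lists and near that over all genes.

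Median POI of the kept peaks lay between 4.90 and 6.76 in replicate 1 and between 5.10 and 7.43 in replicate 2 over these 9 lists. The order of the lists differed between replicates. RNA processing and translation was the lowest in replicate 1 and receptors, kinases and adaptors in replicate 2, while the Wnt hosts, with only 23 and 19 peaks, were the highest in each, level with ubiquitin ligases (6.75) in replicate 1.

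In the YTHDF1 RIP, 342 of the 417 hosts were in the deposited list, which holds only ratios of RIP over input of at least 1.5. That is 82.0% (Wilson 95% interval 78.0% to 85.4%, for counting error only), against 38.3% of all genes with an m6A peak. The share rose over classes of peak number. It was 17.8% in genes with 1 peak in their richer list, 34.4% with 2 or 3, 53.1% with 4 or 5 and 68.3% with 6 or 7. The RIP has 1 library and 1 input, so none of this has a replicate check and no test was made.

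Hosts also had higher ratios within the list. Their median was 3.44 (order-statistic 95% interval 3.24 to 3.57), against 2.08, 2.09, 2.34 and 2.53 in the classes above. A ratio of at least 3 was reached by 207 of the 342 listed hosts (60.5%) and by 25.9% of all genes in the list. The median input of listed hosts was 3.35 FPKM, a unit per transcript length, lower than the 5.27, 6.16, 5.06 and 4.78 FPKM of the classes with fewer peaks. The median RIP level was 11.7 FPKM in hosts and 12.5, 13.8, 12.3 and 12.9 FPKM in those classes, which is nearer to the other classes than the input was.

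**Figure D4:**
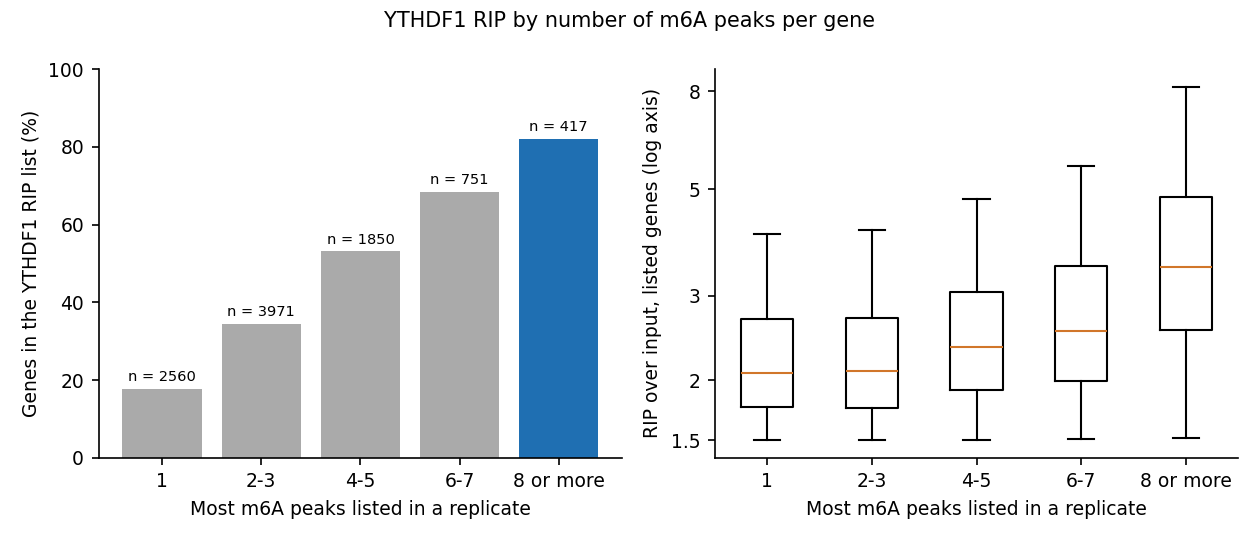
Left, share of genes in the YTHDF1 RIP list (y axis, %) by the higher of their 2 m6A peak counts (x axis), with the number of genes above each bar and the hosts in blue. Right, RIP over input of the listed genes (log axis) for the same classes, with the median, quartiles and whiskers to the furthest gene within 1.5 times the interquartile range. The share rises from 17.8% to 82.0% and the median ratio from 2.08 to 3.44.

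The extent of the peaks along the transcript moved with the RIP values. Among genes whose furthest peak ended at position 4000 or beyond, 85.0% of hosts and 65.6% of other genes were in the list, with median ratios of 3.56 and 2.75. Among genes whose furthest peak ended before position 4000, the shares were 67.6% of 71 hosts and 32.6%, with medians of 2.47 and 2.12. Within both classes the peaks of hosts still reached further, to a median of 6350 against 4975 and of 3550 against 1700, so extent and peak number cannot be told apart here. A split was also made by level in the mRNA-seq of control cells, a unit not known to be per length. Of genes below the median control level, 82.5% of hosts and 42.3% of other genes were listed, and of genes at or above it 76.8% and 35.8%. Over the 342 listed hosts log2 ratio correlated with the furthest end at r = 0.60 (Spearman's coefficient 0.55) and with peak number at 0.47 (0.36). It did not follow the hosts' median POI (r = 0.03). Hosts with at least 13 peaks in their richer list had a median ratio of 6.38 (40 listed of 49), those with 10 to 12 peaks 3.47 (97 of 115) and those with 8 or 9 peaks 3.17 (205 of 253). These are descriptions over genes of 1 library.

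The highest ratio among hosts was that of RNF213, with 22.5 FPKM in the RIP and 1.43 in the input, a ratio of 15.7. HERC2 had a ratio of 13.5 (35.3 over 2.61 FPKM) and AHNAK 13.4 (55.8 over 4.17). FAT1, at 193 over 15.1 FPKM, had 12.8, DYNC1H1 11.9 and TRIO, a guanine nucleotide exchange factor, 11.7. All 6 encode very large proteins. At the low end RBBP6 had 1.51, KIF11 1.53 and QSOX1 1.56, just above the lower limit of the list. Not in the list were 75 hosts, 24 of them with at least 8 m6A peaks in both replicates. DST, EPPK1, GPD2, FOXJ3, QSER1, BOD1L1 and TTC3 were among these, so a ratio for them is not known. By function, the listed hosts had median ratios of 6.77 for ubiquitin ligases (13 of 16 listed) and 5.43 for cytoskeleton and scaffolds (22 of 27). Chromatin regulators had 3.52 (40 of 44), and all 4 Wnt hosts were listed with ratios of 4.74 (LRP6), 4.53 (CHD8), 3.64 (TNKS) and 2.72 (ZNRF3).

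The expression table held footprints and mRNA for 270 hosts in a relative unit the file headers do not name, so depth is unknown, and a level of 1 gene against another may reflect length. Its values sum to between 938900 and 1227000 over footprint libraries and between 339800 and 345000 over mRNA libraries. In control cells hosts had medians of 8.65 for mRNA (quartiles 4.86 and 16.2) and 15.7 for footprints (6.10 and 35.8). The knocked-down gene itself, YTHDF1, was at 27.4 in control mRNA and at 8.62 and 7.81 in the knockdowns, and at 61.4, 17.0 and 19.9 in footprints. Of 8 marker genes of colorectal epithelium, 7 were in the table at 1.36 to 1590 in control mRNA. Of 6 fibroblast markers only COL1A1 was listed, at 1.35, and none of 5 blood and 3 endothelial markers was.

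After knockdown, 0 of the 267 hosts tested passed an adjusted p of 0.05 (limma with Benjamini-Hochberg adjustment over 6782 genes) in footprints, mRNA or translation efficiency, the difference of both on the log2(value + 1) scale. Over all genes 0% rose and 0.0295% fell in footprints, and 0% did in mRNA or efficiency. YTHDF1 itself, lower in both knockdowns, did not pass in footprints (log2 change -1.69, SE 0.40, limma adjusted p = 0.552). It did not pass in mRNA either (-1.62, SE 0.40). A count of 0 hosts therefore does not show that the hosts were unchanged. At an unadjusted p below 0.05, 22 hosts were lower in footprints and 3 higher, which is 8.24% and 1.12%, beside 6.99% and 1.86% of all genes. In efficiency 11 were lower and 0 higher (4.12% beside 2.14%, and 0% beside 0.59%), and in mRNA 0 hosts (0.295% of all genes lower and 0.177% higher). The fit takes the spread of the single control library to equal that of the knockdown libraries. Without knockdown 2 of the footprints that assay has 1 library on each side, and the spread comes only from the mRNA knockdown pair. For this reason p-values of that fit are not given. Its log2 changes were -5.96 in CHD8, -3.53 in ARHGAP21 and -3.17 in KDM6B. Of these, CHD8 and ARHGAP21 were at their control level in the library left out, with log2 changes of -0.06 and -0.03.

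The hosts' footprints had a median log2 change of -0.34, with -0.23 in knockdown 1 and -0.40 in knockdown 2. All tested genes had -0.28, and -0.19 and -0.34 by library, so hosts lay 0.05 below the median of all genes. They were below the control in both knockdown libraries in 140 hosts (52.4%), beside 51.2% of all genes, and above it in both in 46 (17.2% beside 17.5%). These shares are near the background. Host mRNA had a median of 0.06. Taken alone, knockdown 1 gave 0.003 and knockdown 2 gave 0.09, and the fit without knockdown 2 likewise gave 0.003. All genes had -0.01, and -0.04 and 0.02 by library. Host mRNA was higher in both libraries in 106 hosts (39.7% beside 30.9%) and lower in both in 68 (25.5% beside 29.9%). Efficiency had a median of -0.33 beside -0.27, with 145 hosts lower in both (54.3% beside 52.0%) and 42 higher in both (15.7% beside 18.7%). After subtracting each library's median over all genes, the share of hosts lower in footprints in both was 35.2% beside 32.5%. In efficiency 36.7% were lower in both and 29.2% higher, beside 33.9% of all genes in each direction. The share higher in mRNA in both was 40.1% beside 30.6%. The mRNA share lay further from its background than the footprint share, with median changes that differed by 0.07 between hosts and all genes.

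**Figure D5:**
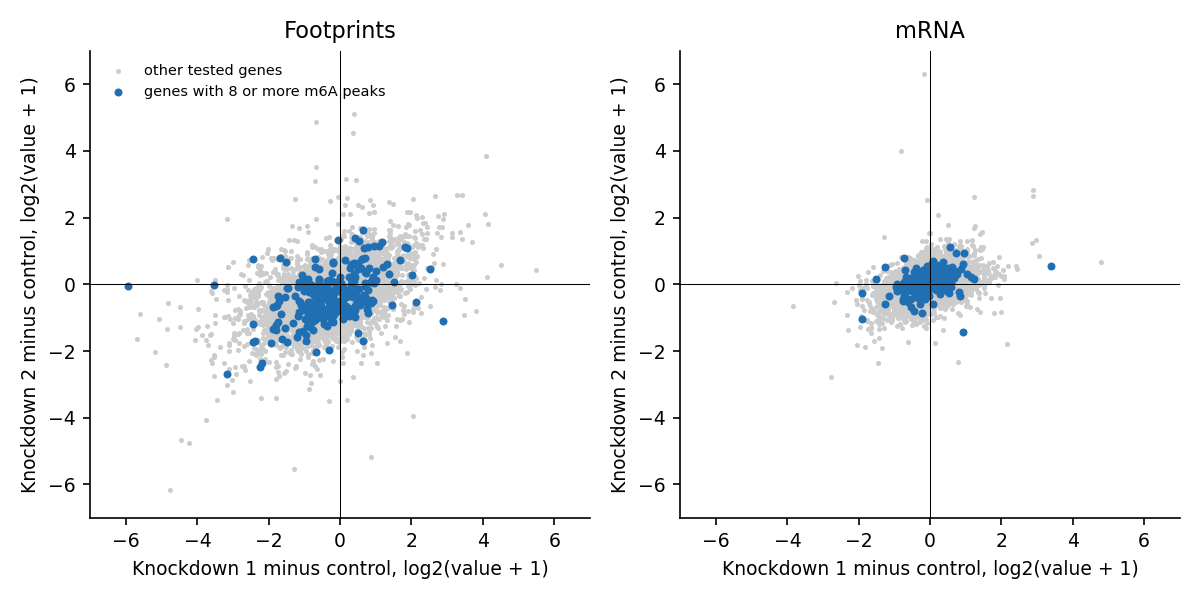
Change of footprints (left) and mRNA (right) after YTHDF1 knockdown, log2(value + 1) of knockdown 1 minus control on the x axis and of knockdown 2 minus control on the y axis. Blue points are the 267 tested hosts and grey points the other tested genes. The hosts lie within the cloud of other genes, with CHD8 at the far left because knockdown 1 alone was low.

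KDM6B, the H3K27 demethylase, had the smallest adjusted p in footprints among hosts. Its control footprints were 37.9, against 3.32 and 4.99 after knockdown, and both knockdowns lay far below the control. Its mRNA was 8.09, 4.87 and 5.58. The log2 change of footprints was -2.93 (SE 0.49, limma adjusted p = 0.363) and that of efficiency -2.39 (SE 0.69, adjusted p = 0.996). KDM6B had 8 peaks in each m6A list, 6 of them kept in each, and a RIP ratio of 2.70.

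TTC3, a ubiquitin ligase gene, had footprints of 25.9, 4.91 and 4.18 in the same order and mRNA of 9.55, 6.23 and 5.63. Both measures were lower in both knockdowns, with a footprint change of -2.28 (SE 0.46, limma adjusted p = 0.53). HTT, the huntingtin gene, differed in direction between the assays. Its footprints were 12.5, 3.66 and 4.43 while its mRNA was 8.46, 17.3 and 17.1. Both knockdowns thus lay on 1 side of the single control in each assay. Of all tested genes, 51.2% were lower in both in footprints and 30.9% higher in both in mRNA. The efficiency change of HTT was -2.37 (SE 0.63, limma adjusted p = 0.996), and its RIP ratio was 5.21. QSER1 had footprints of 50.1, 8.47 and 21.3 with mRNA of 6.64, 6.08 and 6.06. SF3B1, a core splicing factor, had footprints of 689, 371 and 398 with mRNA of 116, 119 and 130, a footprint change of -0.84 (SE 0.28, limma adjusted p = 0.552). CHD8 had footprints of 1275, 19.6 and 1228, so knockdown 1 alone was low and its change of -3.01 (SE 2.03) rests on that library. None of these passed the test.

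At the other end TMEM127, a membrane protein that restrains mTOR, had footprints of 6.62, 25.8 and 15.5 with mRNA of 31.1, 30.8 and 32.4. Both knockdowns were above the control, with a footprint change of 1.47 (SE 0.45, limma adjusted p = 0.552). WDR59 had footprints of 19.1, 80.6 and 23.4, CREBBP 14.2, 22.7 and 46.3, and MACF1 7.84, 10.8 and 22.1. In each of these 3 genes 1 knockdown library stood well above the other. In mRNA the highest were BOD1L1 (1.58, 26.4 and 2.78), HTT and KLF13 (7.91, 12.2 and 18.3). The lowest were CBFA2T3 (18.7, 4.26 and 8.54), ANKRD27 (21.6, 5.01 and 17.9) and MLEC (36.5, 14.6 and 23.9). The value of BOD1L1 rests on knockdown 1.

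The 3 Wnt pathway hosts in the table, LRP6, CHD8 and ZNRF3, were below the control in footprints in both knockdowns, as were 51.2% of all tested genes, and none passed the test. In knockdown 2 the log2 changes of CHD8 (-0.06) and ZNRF3 (-0.19) lay above that library's median of -0.34 over all genes, so relative to all genes only LRP6 of the 3 was lower in both. LRP6 had footprints of 17.6 in the control and 10.4 and 10.3 in the knockdowns, with mRNA of 3.53, 3.95 and 3.55. Its footprint change was -0.71 (SE 0.46, limma adjusted p = 0.629). ZNRF3 had footprints of 1.85 in the control and at most 1.504 after knockdown, and mRNA of 2.36, 1.87 and 1.93. Of the chromatin regulators, 29 were tested, and 17 were lower and 5 higher in footprints in both libraries, with a median change of -0.40. Over all tested genes 51.2% were lower and 17.5% higher in both, with a median of -0.28, so these counts are near the background. KMT2A had footprints of 6.57, 3.95 and 4.41 with mRNA of 2.12, 3.09 and 3.30, and ASH1L 9.53, 7.54 and 6.23 with mRNA of 3.33, 4.61 and 4.19. In both genes footprints were lower and mRNA higher in each knockdown library than in the control, with limma adjusted p of 0.712 and 0.767 for footprints. Footprints were lower in both libraries in 51.2% of all tested genes and mRNA higher in both in 30.9%. The share of genes with both patterns was not computed. Over the 11 tested receptors, kinases and adaptors, mRNA was higher in both libraries in 8 and lower in both in 0, with a median of 0.24. Over the 12 tested RNA processing genes it was higher in both in 7 and lower in both in 0, with a median of 0.17. All tested hosts had 39.7% higher and 25.5% lower in both, with a median of 0.06. Over all tested genes 30.9% were higher and 29.9% lower in both, with a median of -0.01. Every other list held hosts with mRNA lower in both, such as 8 of the 29 chromatin regulators beside 11 higher. All 9 lists held 0 hosts past the test.

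Relations of peak number and POI with the change after knockdown were weak within the hosts. Over 267 hosts, efficiency change correlated with peak number at r = -0.01 (Spearman's coefficient -0.03) and with median POI at r = -0.06 (Spearman's coefficient -0.01). With the log2 RIP ratio it correlated at r = -0.03 over the 215 hosts that have both. Peak number correlated with the mRNA change at r = 0.15 (Spearman's coefficient 0.12) and with the footprint change at r = 0.06 (Spearman's coefficient 0.03). The median mRNA change was 0.05 in hosts with 8 or 9 peaks, 0.07 with 10 to 12 and 0.13 with at least 13. Hosts with at least 13 peaks had a median efficiency change of -0.40 (28 tested), those with 10 to 12 peaks -0.44 (77) and those with 8 or 9 peaks -0.29 (162). These are descriptions across genes, which share the same libraries and are not independent replicates.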

How the data were processed

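Both m6A peak lists hold, per the file headers, signals of immunoprecipitate and input in each window (unit not named), the deposited ratio POI of these, a position score for window, summit and site, and a motif. POI equals immunoprecipitate over input in all 48467 rows that have one and is missing in 882 rows with an input of 0. Per the labels, each list belongs to 1 replicate. How peaks were called is not given in the sources used. POI was used only within each list. The RIP list holds the authors' FPKM values and their ratio (3930 genes, at least 1.5). The table of footprints and mRNA gives the authors' signal for each gene, a relative abundance. STAR and GRCh38 are named in the submitters' processing notes.

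Hosts were genes with at least 8 rows in either list, and peaks were matched by an overlap of at least 1 position. Rows with gene names damaged by a spreadsheet (42 and 40) were left out. Host functions came from 9 lists. The members, lists and rule for named genes (hosts with most peaks, highest POI with solid input, extremes of spacing, RIP ratio and change, up to 4 per list) were chosen with earlier results of these data known. Genes with a mean of at least 1 in log2(value + 1) were tested with limma-trend (limma 3.58.1, R 4.3.3) on all 6 expression libraries, 1 mean per assay and condition. This scale understates changes of low genes. The filter removed 132 genes, 12 damaged names were left out, 6782 were tested and 2 residual degrees of freedom remained. The fit was tested on simulated data. Alternatives covered host thresholds, overlap, POI and input limits, pseudocount, filter, scaling, pairing and left-out libraries. Values of some single hosts are not reported here. Coordinates are from RefSeq's table of GRCh38.p14, in which all 417 hosts were found.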

Additional observations from a re-analysis of the deposited data

How the results depend on the processing

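With hosts required to have 8 peaks in both lists, 79.4% and 78.1% of kept peaks were found in the other list. With centres within 50 positions these shares were 66.3% and 66.0%, and with POI of at least 5 in both lists 69.8% and 68.3%. Median spacing was 518.8 and 537.5 with POI of at least 5, and 450 in replicate 1 with no limit on start and width. With hosts chosen from the other list alone it was 450 and 462.5. Median POI was 4.77 and 4.74 for peaks whose input reached the list's median, and in replicate 1 it was 5.98 with hosts of 8 in both lists, 5.96 with at least 10 in either and 6.02 with no limits. With hosts of 8 peaks in both lists 85.7% were in the RIP list. Their median ratio was 4.02, with at least 10 peaks in either list 4.17, and with input of at least the list's median 3.16. Median centring changed the hosts' median to -0.045 in footprints and -0.052 in efficiency, and quantile normalisation to -0.045 and -0.049. Median centring puts the median of all genes near 0. The hosts' median mRNA change was 0.13 with 8 peaks in both lists. With the replicate block 1 of 267 hosts passed in footprints, KDM6B (limma adjusted p = 0.0384), beside 30 of all 6782 genes. In mRNA and efficiency 0 hosts passed, beside 2 and 6 of all genes. The labels do not say that equal numbers mark a shared culture, though the difference between knockdowns correlated at 0.37 across genes between the assays. Leaving out 1 library at a time gave 0 to 3 hosts in footprints and 0 in mRNA and efficiency. By the limit set for each kind of value, 83 values did not move. Among them, counts of passing hosts were unchanged. Shares, RIP ratios and control levels stayed within their intervals. Other medians stayed within a limit taken from the difference between the 2 lists or knockdown libraries. Where a value moved, the cause was not tested. Depth is unknown for every file, which limits what the low values can show.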
